A study of Mus musculus with 24 samples.

Results

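The 34 genes described here encode the surface receptors, granule cargo, enzymes, cytoskeletal proteins and transcription factors by which megakaryocytes and platelets are usually recognised. They were listed by symbol from general knowledge of this lineage, with earlier results of these data known. Counts of members are therefore descriptions beside the share of all genes. Each symbol matched 1 of the 55471 genes in the deposited tables through the GENCODE M21 annotation. RNA was sequenced after polyA selection from skin and from bone of female mice 10 weeks old, in a series titled for a sarcoma model. Each tissue had 4 libraries labelled F-PRT, 4 labelled S-PRT and 4 labelled Untreated, which gives 24 libraries in 6 groups of labelled biological replicates. F-PRT is read here as proton radiotherapy at the very high dose rate called FLASH, and S-PRT as proton radiotherapy at the standard dose rate. Not given in the sources used here are the strain, the dose, the time from irradiation to tissue collection and whether the sampled animals bore a tumour.

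Megakaryocytes are large polyploid cells of the bone marrow that arise from progenitors shared with the red cell lineage, and they release platelets into the marrow sinusoids. Platelets have no nucleus and carry RNA and protein made in the megakaryocyte. They stick to a cut vessel through receptors for von Willebrand factor and collagen, bind fibrinogen through an integrin, and release clotting factors and chemokines from alpha granules and small mediators from dense granules. Several of these genes are also used outside the lineage, for example by endothelial cells, macrophages, mast cells or epidermis.

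Total expected counts ran from 10.91 to 17.36 megacounts (Mcounts) per bone library and from 16.42 to 22.09 Mcounts per skin library. The tissue labels were checked against marker lists. Summed over 12 genes of osteoblasts, osteocytes and osteoclasts, Untreated bone held 3033 to 4268 TPM (a level per length that sums to the same total in every library) and Untreated skin 53.2 to 173 TPM, and 14 red cell genes held 52510 to 118600 TPM in Untreated bone against 23.8 to 89.3 TPM in Untreated skin. A few libraries stood apart from their groups. Bone Untreated 1 was the shallowest and held 2424 TPM of 15 neutrophil genes, where the other Untreated bone libraries held 10940 to 18390 TPM. Bone F-PRT 2 held 90.9 TPM of 12 keratinocyte genes, where the rest of its group held 2.28 to 33.8 TPM, S-PRT bone 3.83 to 19.8 TPM and Untreated bone 0.96 to 2.54 TPM. Bone F-PRT 3 held 7716 TPM of 12 skeletal muscle genes (1245 to 3209 TPM in the rest of its group), and skin S-PRT 4 held 4.42 TPM of 15 endothelial genes (98.2 to 118.6 TPM in the rest of its group). Skin Untreated 1 held 12110 TPM of keratinocyte genes, against 4065 to 5396 TPM in the others.

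In Untreated bone the levels per length spanned a wide range. Ppbp, which encodes the precursor of the platelet chemokine CXCL7, stood highest at 436 ± 105 TPM (SD, n = 4, as for every mean below). Next came Nfe2, a transcription factor of platelet release, at 111 ± 38.1 TPM and Pf4, the chemokine platelet factor 4, at 107 ± 33.5 TPM, and these 2 levels did not differ beyond their spread. Thbs1, the adhesive glycoprotein thrombospondin-1, stood at 60.2 ± 9.79 TPM. Most members lay between Plek at 49.3 ± 11.7 TPM and Mrvi1 at 12.1 ± 2.71 TPM, where each neighbour in the order overlapped the next within 1 SD. At the low end Itga2 at 5.24 ± 1.48 TPM and P2ry12 at 3.42 ± 0.87 TPM were within their spread of each other, and Slc35d3 at 1.34 ± 0.0995 TPM lay below every other member.

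Promoter sequence was looked up for the members because most of them moved together in bone. The RefSeq table for GRCm38.p6 held a window of 250 bases before to 50 bases after the start for 27 of the 34 members. The motif AGATAA, bound by the megakaryocyte and red cell factor GATA1, was found on either strand in 8 of these 27 windows (29.63%), against 11.41% of the 27025 gene windows in the table. Those 8 members were Mpig6b, Pf4, Gp6, Gp5, Clec1b, Mrvi1, F2rl2 and P2rx1. The motif AGGAAGT, a form of the site of ETS factors such as FLI1, was found in 4 windows (14.81%, against 9.573% of all), those of Pf4, Selp, P2ry12 and Ptgs1. The longer ETS motif CCGGAAGT and the motif of the NF-E2 factor were found in 0 of 27 member windows, against 4.0% and 0.1406% of all. A match is a run of letters and not a shown binding site. Printed next are the 250 bases before the start, 5′ to 3′ on the strand of the gene, for 3 members with AGATAA there and for the chemokine neighbours Pf4 and Ppbp. Capitals mark AGATAA or its reverse complement TTATCT in Gp6 (chr7:4397745-4397994, minus strand), Gp5 (chr16:30310782-30311031, minus strand) and Mrvi1 (chr7:110982462-110982711, minus strand), and the reverse complement of AGGAAGT in Pf4 (chr5:90772185-90772434, plus strand). Ppbp (chr5:90768268-90768517, plus strand) held no match.
Gp6: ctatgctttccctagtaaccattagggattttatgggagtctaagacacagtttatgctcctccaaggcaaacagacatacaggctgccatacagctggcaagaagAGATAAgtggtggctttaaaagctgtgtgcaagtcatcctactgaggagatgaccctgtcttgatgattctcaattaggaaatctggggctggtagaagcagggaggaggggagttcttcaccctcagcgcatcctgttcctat
Gp5: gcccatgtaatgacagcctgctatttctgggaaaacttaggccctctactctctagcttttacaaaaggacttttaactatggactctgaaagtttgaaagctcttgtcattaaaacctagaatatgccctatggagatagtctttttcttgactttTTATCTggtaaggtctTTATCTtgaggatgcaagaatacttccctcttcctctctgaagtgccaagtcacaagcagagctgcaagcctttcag
Mrvi1: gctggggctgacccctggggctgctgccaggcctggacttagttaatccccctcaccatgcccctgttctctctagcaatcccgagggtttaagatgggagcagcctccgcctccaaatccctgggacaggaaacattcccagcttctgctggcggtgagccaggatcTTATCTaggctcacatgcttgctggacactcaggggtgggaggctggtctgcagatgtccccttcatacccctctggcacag
Pf4: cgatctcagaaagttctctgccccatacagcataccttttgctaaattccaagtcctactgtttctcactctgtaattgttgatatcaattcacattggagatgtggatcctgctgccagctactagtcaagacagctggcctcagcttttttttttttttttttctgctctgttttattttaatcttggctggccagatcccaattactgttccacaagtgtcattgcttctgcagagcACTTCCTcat
Ppbp: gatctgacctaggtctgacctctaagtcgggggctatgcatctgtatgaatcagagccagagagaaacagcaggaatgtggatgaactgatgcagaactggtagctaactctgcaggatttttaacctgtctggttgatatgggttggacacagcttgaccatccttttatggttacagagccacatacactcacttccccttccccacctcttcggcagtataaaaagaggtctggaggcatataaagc
Counted back from the start, with the base before it as -1, the match begins at -144 in Gp6, at -93 and -77 in Gp5, at -82 in Mrvi1 and at -10 in Pf4. The AGATAA of Pf4 lies in the 50 bases after its start, which are not printed.

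F-PRT bone was set against Untreated bone to ask what the high dose rate beam did to this group of genes. Expression fell across nearly all of it. Of the 34 members, 30 were lower and 0 were higher at an adjusted p under 0.05 (edgeR), where 17.2% of the 18848 genes tested in bone were lower and 15.5% were higher. The median log2 change of the members was -2.16, and that of all genes tested was -0.01. Members past the test and at least 4-fold lower numbered 19, against 1.43% of all genes, and 29 members had every F-PRT library below every Untreated library, against 17.0% of all genes. In a bulk tissue, fewer cells of a type and less RNA per cell cannot be told apart.

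S-PRT bone was compared with the same 4 Untreated libraries, so the S-PRT and F-PRT values share their controls. After S-PRT 31 members were lower and 0 were higher, where 15.2% of all genes were lower and 13.3% higher. Their median log2 change was -2.18 (-0.01 over all genes), 19 were at least 4-fold lower (1.46% of all genes), and 29 had no overlap with the Untreated libraries (14.4% of all genes). Levels by library are given as CPM, counts scaled to a common library size with TMM factors, which set the libraries to a common middle.

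**Figure D1:**
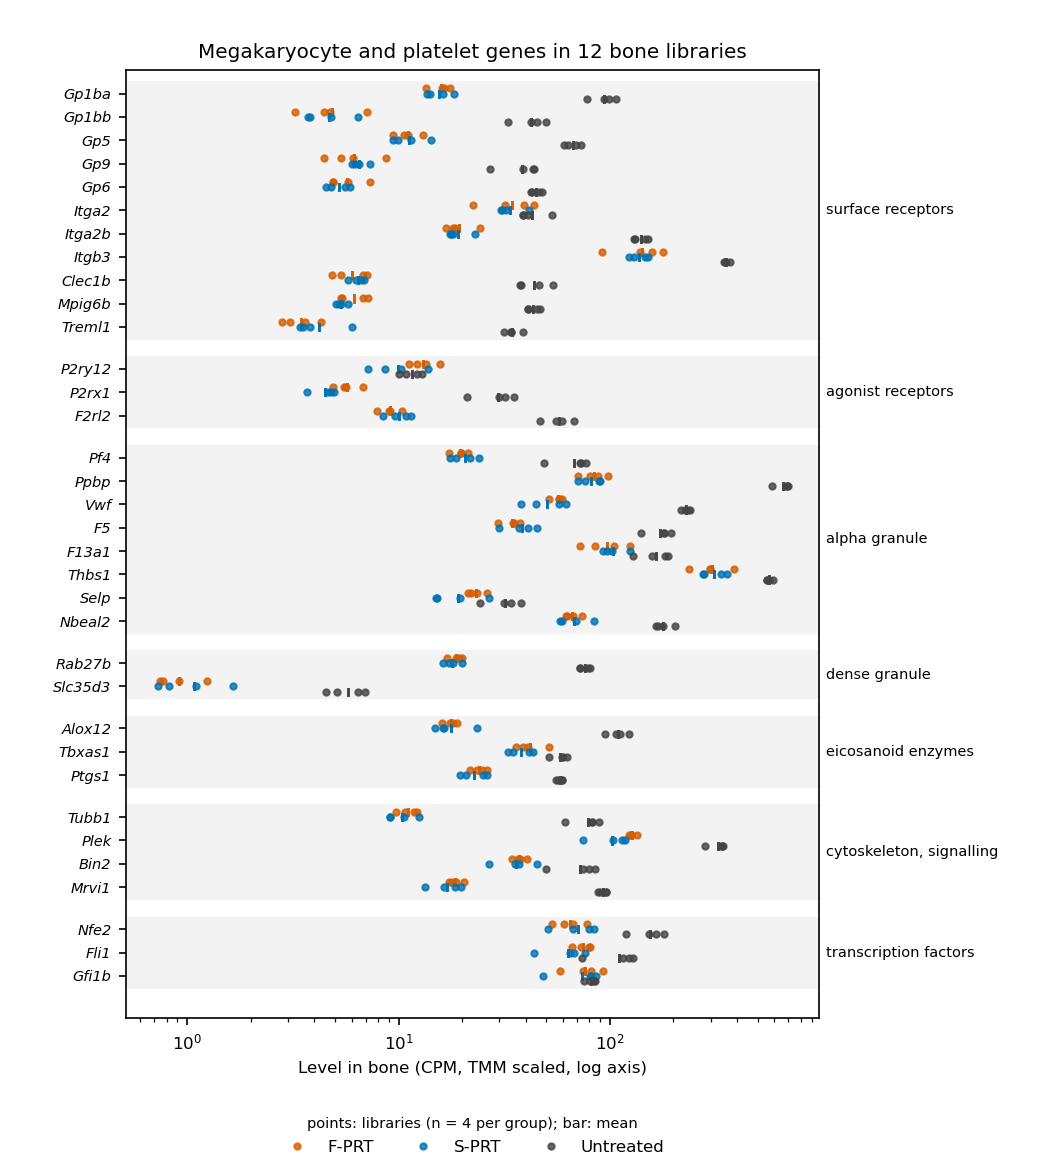
Level of each member in the 12 bone libraries, in CPM on a log axis, grouped by role; each point is 1 library and each vertical bar a group mean of 4. For most members the Untreated points stand to the right of the F-PRT and S-PRT points, which lie on each other; in the other 5 members (Selp, P2ry12, Itga2, Fli1 and Gfi1b) the Untreated libraries overlap those of each beam.

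The size of these changes depends on the scale. When libraries were scaled by total counts alone, the median of all genes moved to 0.19 after F-PRT and 0.18 after S-PRT, and the members' medians to -1.97 and -1.99. Over all genes the calls after F-PRT then split into 5064 higher and 1897 lower, against 2925 and 3236 with TMM, and after S-PRT into 4470 and 1668, against 2512 and 2868. Members past the test numbered 28 and 30 on that scale. On the deposited TPM scale the median ratio of group means over all genes was 0.71 after F-PRT and 0.64 after S-PRT (log2), and that of the members was -1.49 and -1.53. Relative to the median of all genes the members thus stood at -2.20 and -2.17 on the TPM scale. On that scale 8 members were at least 4-fold lower after F-PRT and 9 after S-PRT, against 19 and 19 with TMM. The TMM counts also required passing the test, whereas the TPM counts use ratios of mean TPM alone. Relative to the median of all genes, 18 and 19 members were at least 4-fold lower in TPM. Without overlap 20 and 22 were lower in TPM (29 and 29 with TMM). The shares of all genes are not given for the TPM scale. Vwf, for example, was at log2 -1.22 after F-PRT in TPM. Itgb3, Nbeal2, Nfe2, Ptgs1, Plek, Tbxas1, Bin2, F13a1 and Thbs1 overlapped the Untreated libraries in TPM after F-PRT but not with TMM. After S-PRT the same held for Pf4, Nbeal2, Nfe2, Tbxas1, Bin2, F13a1 and Thbs1. Selp, P2ry12, Tbxas1, Fli1, Itga2 and Gfi1b had higher mean TPM in F-PRT than in Untreated bone, P2ry12 (6.46 ± 0.97 against 3.42 ± 0.87 TPM) and Gfi1b (48.5 ± 8.56 against 30.9 ± 4.71 TPM) without overlap. In S-PRT bone Selp, P2ry12, Itga2 and Gfi1b had higher mean TPM than in Untreated bone.

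The surface receptors, among them those that hold platelets to a vessel wall, had the largest median fall of the 7 roles. Of 11 such members 10 were lower after each beam, with a median log2 change of -2.81 after F-PRT and -2.77 after S-PRT. The complex that binds von Willebrand factor is built from Gp1ba, Gp1bb, Gp5 and Gp9. Gp1ba, its ligand-binding chain, stood at 77.6, 98.7, 93.8 and 107 CPM in the Untreated libraries, 17.6, 16.04, 16.4 and 13.5 CPM in F-PRT and 18.3, 16.2, 13.7 and 14.1 CPM in S-PRT. The treated libraries held 5.93-fold less after F-PRT (log2 -2.57, SE 0.13, adjusted p = 3.72e-08) and 6.06-fold less after S-PRT (log2 -2.60, SE 0.13, adjusted p = 3.44e-08), and no treated library reached an Untreated one. Gp5 stood at 60.6, 63.6, 68.9 and 73.2 CPM in the Untreated libraries, 13.1, 10.6, 11.1 and 9.46 CPM in F-PRT and 14.2, 9.396, 11.5 and 9.99 CPM in S-PRT, and Gp9 at 27.01, 43.98, 38.95 and 43.3 CPM in the Untreated libraries, 8.702, 5.37, 6.08 and 4.42 CPM in F-PRT and 7.304, 6.49, 6.03 and 6.26 CPM in S-PRT. Both fell without overlap, Gp5 by 6.02-fold after F-PRT and 5.902-fold after S-PRT and Gp9 by 6.24-fold and 5.88-fold, and in Gp9 the Untreated 1 library was the lowest of its group. Gp1bb, a further chain of this complex, fell from 42.5 ± 7.09 to 4.86 ± 1.602 CPM after F-PRT (log2 -3.13, SE 0.23) and to 4.69 ± 1.27 CPM after S-PRT (log2 -3.18, SE 0.23). Its exons overlap those of Sept5 on the same strand, which stood at 41.6 ± 11.9 CPM in Untreated, 10.9 ± 1.96 CPM in F-PRT and 13.5 ± 2.42 CPM in S-PRT bone, so reads of the 2 genes may be shared.

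Receptors for collagen, podoplanin and fibrinogen went the same way, with exceptions. Gp6, the signalling receptor for collagen, stood at 47.5, 45.96, 42.95 and 42.2 CPM in the Untreated libraries, 7.29, 4.896, 5.78 and 4.92 CPM in F-PRT and 4.79, 5.87, 5.61 and 4.55 CPM in S-PRT. That was a 7.79-fold fall after F-PRT (log2 -2.96, SE 0.14, adjusted p = 1.49e-08) and an 8.57-fold fall after S-PRT (log2 -3.10, SE 0.14, adjusted p = 1.21e-08). Clec1b, the podoplanin receptor CLEC-2, stood at 53.8, 46.2, 37.5 and 38.1 CPM in the Untreated libraries, 7.12, 5.37, 6.82 and 4.85 CPM in F-PRT and 6.85, 6.63, 5.79 and 6.32 CPM in S-PRT. Every treated library was below every Untreated one (log2 -2.86, SE 0.15 after F-PRT and log2 -2.77, SE 0.15 after S-PRT); Clec9a, which overlaps its exons on the same strand, stood near 10.3 ± 3.34 CPM in Untreated and 8.97 ± 1.74 CPM in F-PRT bone. Itga2b, the alpha chain of the fibrinogen integrin and a defining gene of the lineage, stood at 132, 151, 129 and 147 CPM in the Untreated libraries, 24.3, 18.1, 16.7 and 18.5 CPM in F-PRT and 23.0, 17.6, 17.5 and 18.1 CPM in S-PRT. It fell 7.2-fold after F-PRT (log2 -2.85, SE 0.13, adjusted p = 1.73e-08) and 7.34-fold after S-PRT (log2 -2.87, SE 0.13, adjusted p = 1.79e-08). Its partner chain Itgb3, which osteoclasts and endothelium also use, fell only 2.504-fold and 2.58-fold. Itga2, the alpha chain of a collagen integrin, did not pass the test (log2 -0.32 after F-PRT, adjusted p = 0.203, and -0.34 after S-PRT, adjusted p = 0.185).

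A pair of receptors with immunoglobulin-like domains completed the group. Mpig6b, an inhibitory receptor of megakaryocytes, stood at 40.9, 45.3, 41.01 and 46.9 CPM in the Untreated libraries, 6.76, 5.37, 7.18 and 5.41 CPM in F-PRT and 5.76, 5.32, 5.07 and 5.25 CPM in S-PRT. It had the smallest p of the members, with falls of 7.04-fold (log2 -2.81, SE 0.11, adjusted p = 9.38e-09) and 8.12-fold (log2 -3.02, SE 0.12, adjusted p = 1.11e-08). Its exons overlap those of Ly6g6c on the opposite strand, which held 1.1 ± 0.211 CPM in Untreated bone and 632 ± 271 CPM in Untreated skin, so the Mpig6b value in skin cannot be told apart from reads of that gene if strand was not used in counting. Treml1, stored in alpha granules and shown on activated platelets, stood at 31.7, 33.99, 33.95 and 38.9 CPM in the Untreated libraries, 4.29, 3.07, 2.799 and 3.61 CPM in F-PRT and 6.05, 3.52, 3.8 and 3.41 CPM in S-PRT. Its F-PRT fall of 10.04-fold (log2 -3.33, SE 0.19) was the largest of the 34, and after S-PRT it was 8.21-fold lower (log2 -3.04, SE 0.18) with S-PRT 1 above the other 3 libraries of its group.

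**Figure D2:**
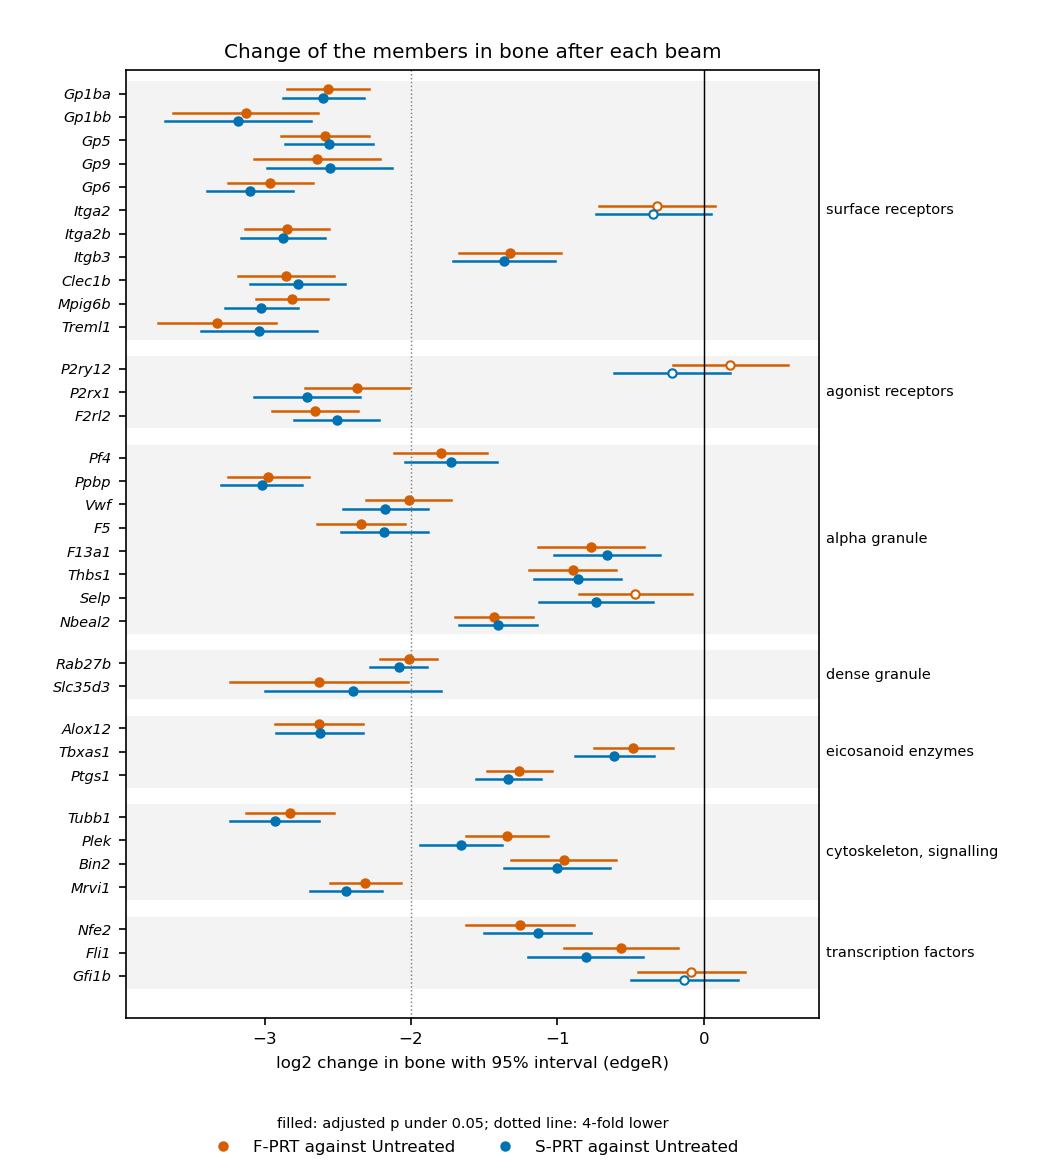
The log2 change of each member in bone after F-PRT and after S-PRT against Untreated, with its 95% interval from edgeR; filled points passed an adjusted p of 0.05 and the dotted line marks a 4-fold fall. Among the 11 surface receptors 9 lie beyond the 4-fold line after each beam, whereas the 3 transcription factors lie between it and 0.

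Of the 3 receptors for soluble agonists, 2 fell and 1 did not. F2rl2, the thrombin-activated receptor PAR3, stood at 46.9, 59.4, 55.8 and 67.6 CPM in the Untreated libraries, 10.4, 9.02, 7.91 and 9.08 CPM in F-PRT and 10.9, 11.5, 9.59 and 8.47 CPM in S-PRT. It was 6.304-fold lower after F-PRT and 5.68-fold lower after S-PRT, without overlap. P2rx1, an ATP-gated channel, fell from 29.5 ± 6.03 to 5.71 ± 0.773 and 4.51 ± 0.566 CPM (log2 -2.37, SE 0.16 and log2 -2.71, SE 0.17). P2ry12, the ADP receptor that antiplatelet drugs block and that microglia and some macrophages also carry, stood at 10.1, 12.3, 12.9 and 10.8 CPM in the Untreated libraries, 11.2, 15.6, 12.2 and 13.4 CPM in F-PRT and 7.13, 8.64, 10.2 and 13.7 CPM in S-PRT. Its groups overlapped and it did not pass (log2 0.18 after F-PRT, 95% interval -0.21 to 0.57, adjusted p = 0.48; log2 -0.22 after S-PRT, -0.62 to 0.18, adjusted p = 0.407). P2ry12 lies inside Med12l on the opposite strand, and Med12l stood at 36.4 CPM in Untreated, 9.33 CPM in F-PRT and 10.1 CPM in S-PRT bone.

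Among 8 genes of alpha granule cargo and granule formation, 7 were lower after F-PRT and 8 after S-PRT, and the sizes ranged widely. Ppbp stood at 582.5, 679, 693 and 692 CPM in the Untreated libraries, 97.7, 80.4, 87.8 and 70.6 CPM in F-PRT and 88.96, 89.9, 76.4 and 70.8 CPM in S-PRT. It fell 7.86-fold (log2 -2.98, SE 0.13, adjusted p = 1.22e-08) and 8.12-fold (log2 -3.02, SE 0.13, adjusted p = 1.12e-08), while Untreated 1 was the lowest of its group. Pf4, its neighbour on chromosome 5 with 2371 bases between the 2 genes, stood at 49.03, 72.5, 73.3 and 76.98 CPM in the Untreated libraries, 21.3, 19.8, 17.3 and 19.8 CPM in F-PRT and 21.8, 17.5, 18.7 and 24.2 CPM in S-PRT. Pf4 fell less, 3.48-fold (log2 -1.80, SE 0.15) and 3.31-fold (log2 -1.73, SE 0.15). As a ratio within each library, Ppbp over Pf4 was 8.99 to 11.9 in Untreated, 3.56 to 5.08 in F-PRT and 2.93 to 5.14 in S-PRT bone. This ratio does not depend on the scaling of the library; the pair was chosen after its values were seen.

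The clotting and adhesion proteins of the alpha granule fell to different extents. Vwf, von Willebrand factor, which endothelium makes too, stood at 239, 226, 217 and 234 CPM in the Untreated libraries, 59.4, 51.7, 57.5 and 57.7 CPM in F-PRT and 61.8, 57.8, 38.2 and 44.9 CPM in S-PRT. It was 4.05-fold lower after F-PRT (log2 -2.02, SE 0.13) and 4.52-fold lower after S-PRT (log2 -2.18, SE 0.13). F5, coagulation factor V, stood at 141, 180, 179.9 and 194 CPM in the Untreated libraries, 34.9, 37.5, 29.6 and 35.3 CPM in F-PRT and 45.4, 29.8, 37.04 and 40.8 CPM in S-PRT. It fell 5.06-fold and 4.54-fold, again with no overlap. Nbeal2, needed to form alpha granules, fell 2.7-fold and 2.65-fold, Thbs1 1.86-fold and 1.82-fold, and F13a1, the A chain of clotting factor XIII that macrophages also make, 1.71-fold and 1.58-fold. Selp, the adhesion receptor P-selectin shared with endothelium, fell after S-PRT (log2 -0.74, SE 0.18, adjusted p = 0.00798). After F-PRT it was at log2 -0.47 (adjusted p = 0.0613), and it passed there without S-PRT 1 (adjusted p = 0.0218) or without Untreated 1 (adjusted p = 0.0214), with a range of 0.0042 to 0.26 over its 22 alternatives.

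Both dense granule genes fell. Rab27b, a small GTPase of granule docking and secretion, stood at 80.3, 79.2, 72.2 and 72.4 CPM in the Untreated libraries, 19.2, 20.05, 18.7 and 17.05 CPM in F-PRT and 16.3, 19.97, 17.4 and 18.01 CPM in S-PRT. The groups were tight and the fall of 4.05-fold (log2 -2.02, SE 0.09) and 4.24-fold (log2 -2.08, SE 0.09) had the smallest standard errors of the members. Slc35d3, a sugar transporter-like protein needed for normal dense granules and the least abundant member, fell from 5.74 ± 1.12 to 0.915 ± 0.226 and 1.08 ± 0.418 CPM (log2 -2.63, SE 0.28 and log2 -2.39, SE 0.28). Of the enzymes that turn arachidonic acid into signalling lipids, Alox12, platelet 12-lipoxygenase, stood at 95.4, 107, 111 and 123.5 CPM in the Untreated libraries, 17.6, 18.2, 18.9 and 16.1 CPM in F-PRT and 23.4, 16.4, 14.9 and 16.2 CPM in S-PRT. It was 6.18-fold lower after F-PRT and 6.17-fold lower after S-PRT. Ptgs1, cyclooxygenase 1 and the target of aspirin in platelets, fell 2.396-fold and 2.52-fold. Tbxas1, thromboxane synthase, which macrophages also express, moved least of the 3, at 1.396-fold (log2 -0.48, SE 0.12, adjusted p = 0.00952) and 1.53-fold lower (log2 -0.61, SE 0.12, adjusted p = 0.0026). The Tbxas1 call after F-PRT was lost without the libraries that stood apart (adjusted p = 0.111) and under total count scaling (adjusted p = 0.108), where the 22 alternatives gave 0.00256 to 0.111.

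All 4 cytoskeleton and signalling members fell after each beam. Tubb1, the beta tubulin of the platelet marginal band, stood at 61.5, 82.6, 82.5 and 88.8 CPM in the Untreated libraries, 12.2, 10.7, 11.8 and 9.77 CPM in F-PRT and 12.6, 9.12, 9.11 and 10.6 CPM in S-PRT. It was 7.09-fold lower (log2 -2.83, SE 0.14) and 7.62-fold lower (log2 -2.93, SE 0.14). Mrvi1, a substrate of cGMP kinase that dampens calcium release, stood at 87.6, 95.8, 90.3 and 95.7 CPM in the Untreated libraries, 17.9, 17.4, 20.3 and 18.8 CPM in F-PRT and 18.4, 19.7, 13.4 and 16.4 CPM in S-PRT. It fell 4.97-fold and 5.44-fold, and Plek, the protein kinase C substrate pleckstrin of platelets and leukocytes, 2.54-fold and 3.16-fold. Bin2, a membrane-bending protein of blood cells, fell 1.94-fold and 2.01-fold.

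The transcription factors changed least. Nfe2 stood at 119, 153, 166 and 181 CPM in the Untreated libraries, 77.8, 60.9, 66.9 and 53.5 CPM in F-PRT and 79.8, 66.95, 83.7 and 51.2 CPM in S-PRT. It fell 2.39-fold after F-PRT (log2 -1.26, SE 0.17, adjusted p = 0.000117) and 2.197-fold after S-PRT (log2 -1.14, SE 0.17, adjusted p = 0.000292), with no overlap. Fli1, an ETS factor of megakaryocytes and endothelium, was 1.48-fold lower after F-PRT (log2 -0.57, SE 0.18, adjusted p = 0.0286) and 1.75-fold lower after S-PRT (log2 -0.81, SE 0.18, adjusted p = 0.00485), and its groups overlapped at Untreated 1, which held 73.7 CPM where the other Untreated libraries held 115.6 to 129 CPM. The F-PRT call was lost without F-PRT 1, F-PRT 3 or Untreated 2, 3 or 4 (adjusted p 0.0602 to 0.0817), with a skeletal muscle covariate (adjusted p = 0.0626) and under total count scaling (adjusted p = 0.146), with a range of 0.00126 to 0.146 over 22 alternatives. Gfi1b, a zinc finger repressor needed by both red cell and megakaryocyte precursors, stood at 83.8, 80.5, 75.8 and 85.02 CPM in the Untreated libraries, 92.4, 74.7, 81.0 and 58.3 CPM in F-PRT and 81.8, 80.7, 85.7 and 48.4 CPM in S-PRT. It did not pass (log2 -0.09, 95% interval -0.45 to 0.28, adjusted p = 0.732 after F-PRT; log2 -0.13, -0.50 to 0.23, adjusted p = 0.6 after S-PRT), and the sign of its estimate turned under total count scaling, on the TPM scale, and without F-PRT 4 (after F-PRT) or S-PRT 4 (after S-PRT).

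Ratios of partners within a complex were taken in the same way. Gp1ba over Gp5, in CPM within a library, was 1.28 to 1.55 in Untreated, 1.34 to 1.51 in F-PRT and 1.195 to 1.72 in S-PRT bone, and these ranges overlapped. Gp1bb over Gp9, of the same complex, was 1.02 to 1.22 in Untreated, 0.53 to 1.07 in F-PRT and 0.596 to 0.883 in S-PRT bone, so that S-PRT lay below Untreated and F-PRT overlapped it. Itga2b over Itgb3 was 0.369 to 0.427 in Untreated, 0.103 to 0.182 in F-PRT and 0.124 to 0.151 in S-PRT bone, with no overlap between Untreated and treated libraries. These pairs were chosen after their values were seen.

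The beams were then compared with each other in bone, the contrast named in the series title. No member passed: 0 of 34 at an adjusted p under 0.05 with edgeR, DESeq2 or limma voom, where 0.00531% of all genes passed with edgeR. At an unadjusted p under 0.05 there were 2 members in edgeR, Plek (log2 0.31 higher in F-PRT, 95% interval 0.03 to 0.59) and P2ry12 (log2 0.40, 0.01 to 0.79), both with adjusted p = 1.0, where 3.36% of all genes had such a p. Plek was the 1 member with no overlap between the beams, at 123, 135, 126 and 125 CPM in F-PRT and 103, 74.8, 114.5 and 118 CPM in S-PRT, where 1.81% of all genes were higher without overlap. Among the defining genes the difference was log2 0.03 for Itga2b (95% interval -0.25 to 0.30), 0.05 for Ppbp (-0.21 to 0.30) and 0.03 for Gp1ba (-0.24 to 0.30). The 95% intervals of 25 members lay within 0.5 of 0 and those of all 34 within 1, the widest bounds being -0.89 and 0.79.

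**Figure D3:**
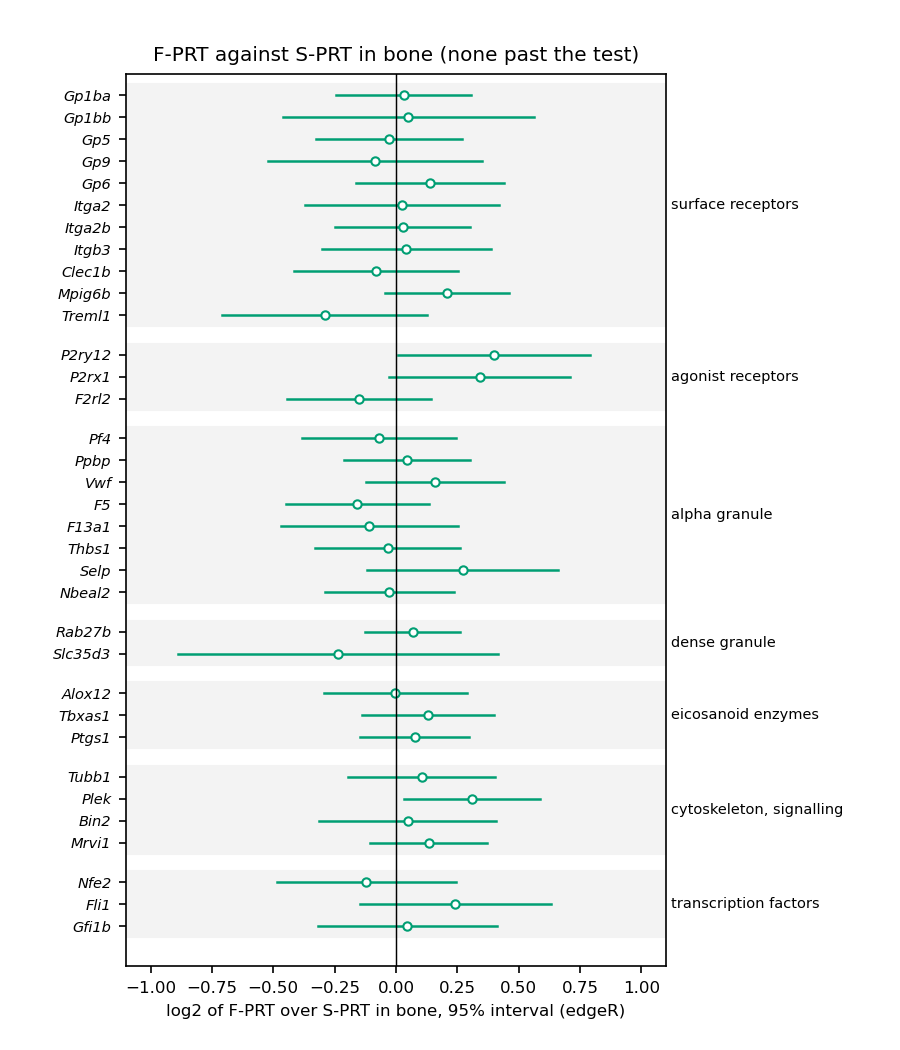
Difference between the beams in bone for each member, as the log2 of F-PRT over S-PRT with its 95% interval from edgeR; open points did not pass the test. The intervals of 32 of the 34 members include 0, and the exceptions are Plek and P2ry12.

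Other genes of megakaryocytes and platelets, 76 from a second list, moved less as a group. After F-PRT 42 of them were lower, 7 higher and 27 did not pass, with a median log2 change of -0.45. After S-PRT 45 were lower, 5 higher and 26 did not pass, with a median of -0.59. Over all genes tested 17.2% were lower and 15.5% higher after F-PRT, and 15.2% and 13.3% after S-PRT. The counts of higher genes in this list lay below those shares. Among the lower genes were Lyst, a regulator of lysosome-related granules (log2 -1.48 after F-PRT and -1.46 after S-PRT), Cd226, an adhesion receptor also found on T and NK cells (-1.76 and -2.20), and Rgs18, a brake on G protein signalling in platelets (-2.27 and -2.41). Among the higher genes were Mylk, myosin light chain kinase (0.57 and 0.50), S1pr1, a sphingosine phosphate receptor of endothelium and lymphocytes (0.64 and 0.56), Itgb1, a widely used integrin chain (0.465 and 0.31), and Pdgfb, a growth factor of platelets and endothelium (0.53 and 0.52). Between the beams 0 of these 76 passed in edgeR, and 4 had an unadjusted p under 0.05 (3.36% of all genes).

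Markers of other cell types moved in the same bone libraries, and their part in the falls was not tested. Over all genes tested 17.2% were lower and 15.5% higher after F-PRT, and 15.2% and 13.3% after S-PRT. Sums are in TPM, where the median ratio of all genes was itself log2 0.71 after F-PRT and 0.64 after S-PRT. Of 14 red cell genes 11 were lower after each beam (median log2 -1.06 after F-PRT and -0.87 after S-PRT), and their summed level was 44010 to 62430 TPM in F-PRT and 41880 to 64990 TPM in S-PRT against 52510 to 118600 TPM in Untreated bone. Of 15 neutrophil genes 14 were lower (medians -4.85 and -4.66), at 1119 to 1295 TPM in F-PRT, 845 to 1908 TPM in S-PRT and 2424 to 18390 TPM in Untreated. Endothelial genes, whose cells also make Vwf, Selp and Fli1, went up: 10 of 15 were higher and 0 lower after each beam, with sums of 339 to 412 TPM in F-PRT, 274 to 399 TPM in S-PRT and 94.2 to 166 TPM in Untreated. Of 15 macrophage genes 12 were higher and 2 lower after each beam (sums of 2220 to 2728, 1243 to 2218 and 535.5 to 2467 TPM), and of 12 bone cell genes, the osteoclast genes among them, 6 and 7 were higher and 0 lower (sums of 6665 to 11830, 9347 to 10420 and 3033 to 4268 TPM, in the same order). Of 10 mast cell and basophil genes 3 were lower and 2 higher after each beam (sums of 50.03 to 62.3, 32.2 to 54.8 and 23.6 to 72.8 TPM). Keratinocyte genes were higher in F-PRT bone (9 of 9 tested, at 2.28 to 90.9 TPM against 0.96 to 2.54 TPM) and 1 of 9 was higher in S-PRT bone. At such low Untreated levels, genes of this list may have passed the low-count filter through treated libraries. The count of 9 is therefore no support for a rise. In bone, 1 of these list genes, of keratinocytes in the Untreated group, had 0 counts in a whole group. None of 12 muscle genes passed in edgeR, 0 also at an unadjusted p under 0.05. With the muscle level as a covariate 29 members were lower after F-PRT and 31 after S-PRT. Over all 18848 genes tested, 2662 and 2245 were then lower. Without the 3 bone libraries that stood apart the counts were 29 and 31, where 2259 and 2917 of 18848 genes were lower.

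Skin, a tissue without marrow, held most members at far lower levels. In untreated mice 31 of 34 members were higher in bone than in skin and 1 was lower. Of the 20754 genes tested over all 24 libraries, 32.6% were higher and 32.6% lower. Among the 31 are Gp6, Tubb1, Treml1, Slc35d3 and Gfi1b, which did not pass the low-count filter in skin alone. They entered this test through their bone libraries, where they are high, so their calls are no support for a tissue difference. Ppbp was 375-fold higher in bone (log2 8.55, SE 0.21), Itga2b 52.2-fold and Gp1ba 84.6-fold, whereas Vwf was 9.53-fold and Pf4 8.27-fold higher. Ptgs1 was the lower 1 (log2 -1.83, SE 0.13, adjusted p = 6.59e-11), and Rab27b (log2 0.06, adjusted p = 0.752) and Itga2 (log2 0.40, adjusted p = 0.101) did not pass. Nbeal2 was only 1.34-fold higher in bone (log2 0.43, adjusted p = 0.00637).

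In skin 29 of the 34 members passed the filter on low counts, and Gp6, Tubb1, Treml1, Slc35d3 and Gfi1b did not. With edgeR 0 of the 29 passed the test after F-PRT (2.39% of all genes tested in skin passed) and 0 after S-PRT (4.34% of all genes), and DESeq2 also gave 0 and 0. At an unadjusted p under 0.05 there were 5 members after F-PRT (14.9% of all genes) and 4 after S-PRT (16.8% of all genes). With limma voom and quality weights 4 and 4 passed, all higher. Of the 19038 genes tested in skin, 13.8% and 16.3% passed in either direction, and 1314 and 1577 genes passed as higher. The median log2 change was 0.35 after F-PRT (-0.02 over all genes) and 0.37 after S-PRT (0.00 over all genes). Pf4 stood at 11.4, 7.13, 2.78 and 9.18 CPM in Untreated skin, 12.4, 15.1, 18.04 and 15.05 CPM in F-PRT and 12.5, 17.3, 18.4 and 3.92 CPM in S-PRT, so that every F-PRT library was above every Untreated one, as for Nfe2, Vwf, P2ry12 and Fli1. Those 5 members without overlap compare with 8.02% of all genes higher without overlap, and 1 member, Thbs1, was lower without overlap (8.14% of all genes). After S-PRT Gp5 was the 1 member higher without overlap (3.81% of all genes), and 0 were lower without overlap (5.37% of all genes). Gp5 stood at 0.446, 0.615, 0.757 and 0.8199 CPM against 0.272, 0.1097, 0.181 and 0.426 CPM in Untreated skin. These values rest on 10 to 15 counts a library in S-PRT and 2 to 7 in Untreated skin. In TPM Pf4, Gp5, Vwf and F13a1 were higher without overlap after F-PRT, and Ppbp and Gp5 after S-PRT. Nfe2, P2ry12, Fli1 and Thbs1 overlapped in TPM after F-PRT, and the share of all genes is not given for that scale.

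The number of members past the test in skin changed with the libraries used. Skin S-PRT 4 held Vwf at 1.81 CPM where the other S-PRT libraries held 33.0 to 49.9 CPM, and F13a1 at 33.7 CPM against 111 to 174.5 CPM. Without it 5 members passed after S-PRT, all higher (F13a1, Itgb3, Mrvi1, Plek and Vwf), and 1 after F-PRT (Vwf). Of the 19038 genes tested 2293 and 1492 passed, 1261 and 738 of them higher. Without skin S-PRT 4 and skin Untreated 1 together, 9 passed after S-PRT and 5 after F-PRT (Gp1bb, Itgb3, Nfe2, Pf4 and Vwf), again all higher. Over all genes 23.7% and 14.2% passed in either direction, and 2492 and 1580 genes passed as higher. Beside these values, endothelial genes summed to 94.8 to 108.5 TPM in F-PRT skin, 4.42 to 118.6 TPM in S-PRT skin and 28.2 to 83.5 TPM in Untreated skin, with 0 of 15 past the test after each beam in edgeR and 2 (F-PRT) and 1 (S-PRT) at an unadjusted p under 0.05; their part in the skin values was not tested. Between the beams 0 of 29 members passed in skin, 0 had an unadjusted p under 0.05, and 0.0% of all genes passed.

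The response of bone was then tested against that of skin, as the interaction of beam and tissue over all 24 libraries. After F-PRT 24 of 34 members changed more downward in bone than in skin, where 4.66% of all genes did, and after S-PRT 23 did, where 4.96% did. The median difference of the log2 changes was -2.31 and -2.28. These values include Gp6, Tubb1, Treml1, Slc35d3 and Gfi1b, which entered the test through their bone libraries, where they are high. Their calls are no support for a difference between tissues. Of the 29 members measured well enough to be tested in skin, 21 passed after each beam. The smallest p values were those of Mpig6b, whose skin value may hold reads of Ly6g6c (difference -2.71 after F-PRT and -2.99 after S-PRT), Ppbp (-3.07 and -3.45) and Itga2b (-3.17 and -3.48). Rab27b, which did not pass the test between the untreated tissues, stood at 77.3, 54.6, 72.9 and 67.2 CPM in Untreated, 81.9, 82.3, 107 and 77.3 CPM in F-PRT and 64.6, 67.8, 96.8 and 48.1 CPM in S-PRT skin. Its lowest F-PRT and highest Untreated skin libraries were level, and the difference of its changes between tissues was -2.35 (adjusted p = 6.46e-07) and -2.10 (adjusted p = 2.33e-06). Nbeal2 differed by -1.33 and -1.18. Members that did not pass after either beam were Selp, P2ry12, Slc35d3, Tbxas1, Bin2, F13a1, Thbs1, Fli1, Itga2 and Gfi1b, and Treml1 did not pass after S-PRT.

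Members were also grouped by how much higher they were in bone than in skin. Left out of this grouping are Gp6, Tubb1, Treml1, Slc35d3 and Gfi1b, which did not pass the skin filter. They held 0 to 8 counts in each Untreated skin library. Among those left out Gfi1b did not pass the test in bone, while Gp6, Tubb1, Treml1 and Slc35d3 were at least 4-fold lower. Clec1b and Gp5 passed the skin filter and were kept. They held 0 to 8 and 2 to 7 counts in the Untreated skin libraries, so their tissue differences rest on few counts as well. Of 14 members at least 16-fold higher in Untreated bone than in Untreated skin, 10 were at least 4-fold lower after each beam (median log2 change -2.58 after F-PRT and -2.56 after S-PRT), and of the other 15 members 5 were (medians -1.26 and -1.34). Across these 29 genes the tissue difference and the change after F-PRT had Pearson's r = -0.54 and Spearman's rho = -0.53, and for S-PRT -0.53 and -0.53. Genes are not independent replicates, and both measures share the Untreated bone libraries, so these values are descriptions. Nfe2, chosen after its values were seen, stood apart from the trend, with a tissue difference of 7.48 (log2) and a fall of less than 4-fold after each beam.

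**Figure D4:**
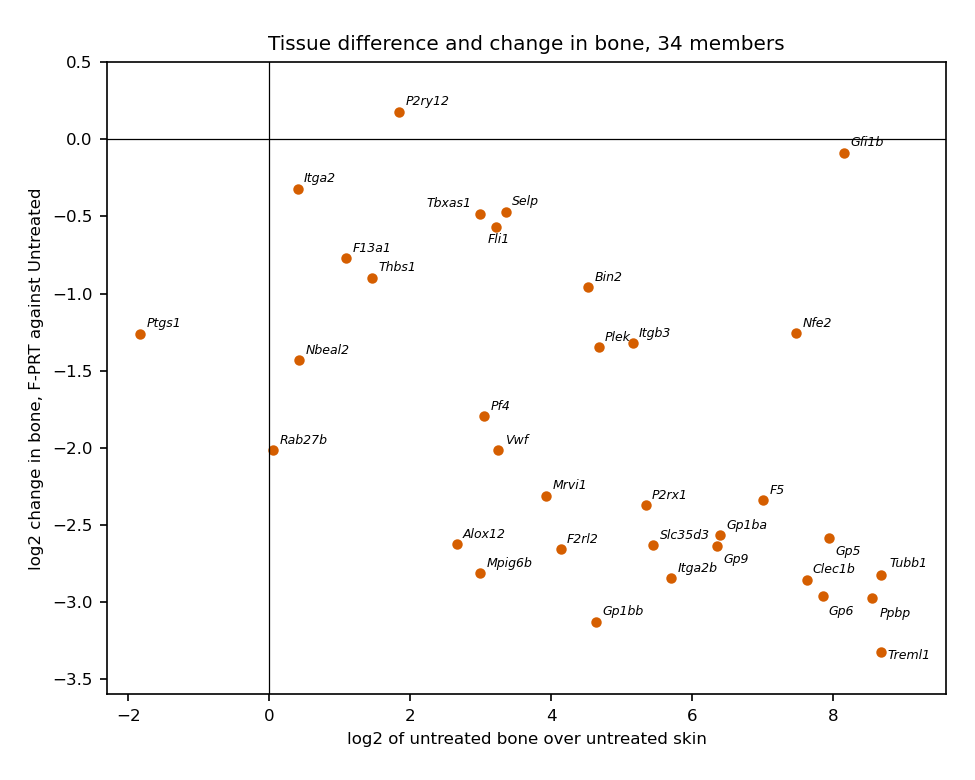
Each of the 34 members by the log2 of Untreated bone over Untreated skin (horizontal axis) and its log2 change in bone after F-PRT (vertical axis), both from edgeR. Members at the lower right, such as Ppbp and Gp1ba, are far higher in bone and fell more than 4-fold. Rab27b and Nbeal2 at the left fell with tissue differences of 0.06 and 0.43. Gfi1b at the upper right did not pass the test in bone. The horizontal places of Gp6, Tubb1, Treml1, Slc35d3, Gfi1b, Clec1b and Gp5 rest on 0 to 8 counts in each Untreated skin library.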

How the data were processed

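RNA-seq values were deposited as 1 table per library with expected counts (estimated counts per gene), TPM and FPKM columns and transcript lengths in bases, per the file headers. Alignment and quantification tools listed in the submitters' processing notes are STAR and RSEM, beside FastQC and cutadapt, with GRCm38 as the build. Not given in the sources used here are tool versions, the annotation release and whether strand was used in counting. Deposited TPM values describe levels between genes and between marker lists, and the deposited FPKM values and lengths entered no result.

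Expected counts were rounded to whole numbers and tested with edgeR 4.0.16 (R 4.3.3) by its quasi-likelihood test, with TMM factors, filterByExpr, the 12 libraries of a tissue in 1 fit and all 24 for comparisons between tissues. P-values were adjusted by Benjamini-Hochberg over all genes tested, and a member passed at an adjusted p under 0.05. Standard errors come from the log2 change and its F statistic. Folds of at least 4 count as large.

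The members and lists were chosen with earlier results of these data known, so their counts are descriptions beside the share of all genes. All 34 members are accounted for by role; values in every bone library are given for Pf4, Itga2b, Gp9, Vwf, P2ry12, Mpig6b and Nfe2 and for the 14 members of smallest p in bone, and for Gfi1b, added after its values were seen. Of the second list, up to 4 genes of smallest p in each direction were chosen, of which 1 is not reported here.

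Alternatives were DESeq2 1.42.0, limma 3.58.1 voom with quality weights, DESeq2-type (RLE) size factors, no low-count filter and at least 1 CPM in 4 libraries. Others were a replicate block, the 8 libraries compared alone and leaving out each library. The block was the replicate number within a tissue, and treatment and number together across tissues. Chosen after seeing the data were the fits without 5 libraries that stood apart (3 of bone, 2 of skin), total count scaling, a muscle covariate and ratios of mean TPM. Gene symbols came from GENCODE M21, which matched 99.57% of gene identifiers. In data simulated from bone for F-PRT against Untreated (18848 genes), edgeR recovered 64% of genes changed 2-fold and 91% of those changed 4-fold. In skin (19038 genes) it recovered 36% and 80%. Each simulation changed 100 genes at each fold, fewer than passed in the real fits of bone (6161) and skin (455). These rates thus need not hold for the real tests.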

Additional observations from a re-analysis of the deposited data

Results flagged for a closer look

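Some members had 1 library far from the other 3 of its group, in 13 of 189 combinations of gene and group, where chance gives about 1 in 20. In bone Untreated 1, the shallowest library, Ppbp was at 582.5 CPM (679 to 693 in the others), Pf4 at 49.0 CPM (72.5 to 77.0), Plek at 281.7 CPM (335 to 341) and Itga2 at 53.5 CPM (38.8 to 41.0). In bone S-PRT 1, Itga2b was at 23.0 CPM (17.5 to 18.1) and Treml1 at 6.05 CPM (3.41 to 3.80). In bone S-PRT 4, Itga2 was at 41.5 CPM (30.7 to 32.3) and Gfi1b at 48.4 CPM (80.7 to 85.7). In skin F-PRT 3, Rab27b was at 107 CPM (77.3 to 82.3), P2ry12 at 7.64 CPM (4.18 to 4.63) and F5 at 2.26 CPM (1.27 to 1.38). Nbeal2 in skin S-PRT 4 was at 134.6 CPM (96.4 to 103), and Alox12 in skin Untreated 1 at 24.1 CPM (13.1 to 13.7).

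The change in bone differed from that in skin by the interaction test in edgeR for 24 members after F-PRT and 23 after S-PRT. Of the 29 members tested in skin, 21 were among them after each beam. The smallest p values after F-PRT were those of Mpig6b (log2 difference -2.71), Ppbp (-3.07), Itga2b (-3.17), Rab27b (-2.35) and Gp1ba (-2.50). After S-PRT they were those of Mpig6b (-2.99), Ppbp (-3.45), Itga2b (-3.48), Tubb1 (-4.53) and Gp1ba (-3.03). The Tubb1 value rests on very few counts in skin, where this gene did not pass the filter on low counts.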

How the results depend on the processing

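Members past the test in bone numbered 28 to 31 after F-PRT and 30 to 31 after S-PRT over all alternatives run, and 0 between the beams. All genes past the test numbered 4678 to 7879 after F-PRT and 4086 to 6380 after S-PRT, of 18848 tested in most of these fits. The members' median log2 change moved from -2.16 to -1.97 (total count scaling) and -1.49 (TPM scale) after F-PRT, and from -2.18 to -1.99 and -1.53 after S-PRT. Signs turned on the TPM scale for Fli1 (0.11), Gfi1b (0.65), Itga2 (0.43), Selp (0.50) and Tbxas1 (0.21) after F-PRT and for Gfi1b (0.51), Itga2 (0.59), P2ry12 (0.53) and Selp (0.35) after S-PRT, where all genes shift too. Gfi1b also turned under total count scaling (0.11 and 0.0561), and with each library left out ranged from -0.19 to 0.0249 after F-PRT and -0.21 to 0.0257 after S-PRT. F13a1 after S-PRT lost its call under total count scaling (adjusted p = 0.0614, 0.00119 to 0.0614 over 22 alternatives). In skin, 4 of 29 members passed after F-PRT with limma voom, where 13.8% of all genes passed. With the 8 libraries alone 1 passed (6.25% of all genes), and 5 without the libraries that stood apart (14.2% of all genes). After S-PRT 4 passed with limma voom (16.3% of all genes) and 9 without those libraries (23.7% of all genes). With each library left out 0 to 1 passed after F-PRT and 0 to 5 after S-PRT. The 1 and the 5 were found without skin S-PRT 4, where 1492 and 2293 of 19038 genes passed. The cause of these changes was not tested.

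Replicate numbers were not taken as pairs, since not every same-numbered pair correlated over 0.1: their correlations were -0.261 to 0.187 in bone (3 of 12 over 0.1), -0.343 to 0.372 in skin (7 of 12, median 0.116, against 8 of 36 and -0.02 for different numbers) and -0.289 to 0.194 across tissues (1 of 12). With the number as a replicate block, 30 and 31 members passed in bone, where 5625 and 4917 of 18848 genes passed. In skin 0 and 0 passed, where 299 and 595 of 19038 genes did. Between the beams 0 members passed in either tissue. Across tissues the block was treatment and number together. There 19 members passed in each interaction, where 1236 and 1090 of 20754 genes did, and 32 between untreated tissues, where 12675 genes did. In skin 5 members were not tested, since their counts were too low there. They entered the tests across tissues through their bone libraries, so any calls of theirs are no support there.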
